A study of Mus musculus with 12 samples.

Results

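The genes described here are 43 cell cycle genes: 25 that act in mitosis and 18 that act in S phase, when DNA is copied. They were taken by symbol from a given list. Its rule used no measured value, though the list was drawn up with earlier results of these data known. All 43 were found among the 19049 genes of the deposited table and were tested. The table holds 12 RNA-seq libraries of stromal cells from the colon of C57BL/6J mice, 4 per group. Normal adult colon came from mice of 8 weeks, and P14 colon from mice of 2 weeks (postnatal day 14, called prenatal in the series text). Tumours came from mice of 12 to 14 weeks treated with azoxymethane and dextran sodium sulfate (AOM/DSS), a chemical carcinogen and an agent that injures the colonic lining. All groups were sorted for live cells without EPCAM, CD31, CD45 and TER119, surface proteins of epithelium, vessel lining, leukocytes and the red cell lineage, so "stroma" here is what these 4 antibodies left and no positive marker was used. Age differed with group, and the effects of tumour and age cannot be told apart.

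A dividing cell first copies its genome and then separates the copies. Before S phase, cyclin E and its kinase release E2F factors from the RB proteins. E2F then raises the genes of origin licensing (Cdc6, Cdt1), of the MCM helicase ring that unwinds DNA, and of nucleotide supply. The mitotic genes (cyclins A and B, Cdk1, spindle motors, checkpoint and centromere proteins) peak later, and in resting cells the DREAM and MuvB complexes keep many of them low. In adult colon most division takes place in the crypt epithelium, while most fibroblasts of the lamina propria rest.

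Total counts per library ranged from 15449444 to 38799033, and tumour replicate 4 had the fewest counts and 9.14% of listed genes at 0. Pdgfra and Col1a2, fibroblast genes, were present in all 12 libraries, Pdgfra at 504.5 to 1247 CPM (counts scaled to the library total times edgeR's trimmed-mean factor). The design gives 2 males and 2 females per group. By Xist, an RNA of the inactive X chromosome, and by 4 Y-linked genes, normal adult and P14 libraries fell 2 and 2, but in tumour Xist lay between 481.4 and 1395 CPM in each library with at most 1 Y-linked count, which goes against the stated sexes. Each comparison is therefore also given for the libraries with Xist above 100 CPM alone: normal adult replicates 3 and 4, P14 replicates 1 and 4, and the 4 tumour libraries.

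Expression per length ordered the genes alike in all groups at the top of the range. Pcna, the sliding clamp of the DNA polymerases, stood highest at 46.1 ± 7.004 CPM per kb of exon in normal adult, 62.4 ± 7.06 in P14 and 51.4 ± 12.8 in tumour (SD, n = 4). Pcna and Tyms have pseudogene copies in the annotation, so their counts are less certain. Top2a, the topoisomerase that untangles chromosomes, and Mcm6, a helicase subunit, took the next 2 ranks in every group. Their order changed between groups: Top2a stood at 13.9 ± 7.21 CPM per kb and Mcm6 at 11.4 ± 3.27 in normal adult, within each other's spread. Mki67, the nuclear antigen Ki-67 that coats mitotic chromosomes, was present in every library, from 42.9 to 201 CPM. The lowest were Pimreg, a mitotic regulator, at 0.395 ± 0.114 CPM per kb in normal adult, and Cdc6 at 1.24 ± 0.279 in P14 and 0.931 ± 0.282 in tumour.

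The promoters of the 2 classes differed in their letters. RefSeq windows on GRCm38.p6, from 250 bases before to 50 after a start site, were found for 35 of the 43 genes, and not for Aurkb, Ccna2, Ccne2, Gins2, Kif20a, Mcm4, Pimreg and Tpx2. Some genes have more than 1 window. The cell cycle homology region (CHR), the DNA element of the MuvB complex, was searched as TTTGAA or TTCGAA on both strands; TTCGAA reads the same on both. It was present in 17 of 21 mitotic windows (81.0%), in 2 of 17 S-phase windows (11.8%) and in 19.2% of all 32851 windows. Within 50 bases of the start site it was present in 16 mitotic windows (76.2%), in 0 S-phase windows and in 5.31% of all. The E2F element was searched as TTTGGCGC, TTTCGCGC, TTTCCCGC or TTTGCCGC. These words were found in 7 of 17 S-phase windows (41.2%), in 1 of 21 mitotic windows (4.76%), that of Cdk1, and in 2.26% of all windows. CCAAT, the box bound by NF-Y, was present in 90.5% of mitotic, 70.6% of S-phase and 37.4% of all windows. A match of letters is a description and not a bound site.

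Sites are shown for the 3 mitotic genes with a window and the smallest adjusted p, and for Plk1, which moved against its class, with the CHR word in capitals, 5′ to 3′ on the gene's strand. They lie at chr2:127831828-127831857 (minus) for Bub1, chr1:189688067-189688096 (minus) for Cenpf, chr7:80294434-80294463 (plus) for Prc1 and chr7:122159453-122159482 (plus) for Plk1. Counted from 1 at the start site, the word begins at base 15 in Bub1, 3 in Cenpf and 31 in Plk1.
Bub1: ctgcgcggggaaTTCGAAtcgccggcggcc
Cenpf: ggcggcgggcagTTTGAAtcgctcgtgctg
Prc1: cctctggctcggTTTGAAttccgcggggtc
Plk1: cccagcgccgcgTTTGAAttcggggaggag
The same word, TTTGAA, was thus found in Plk1, the 1 gene of the class that was lower at P14, and in Cenpf and Prc1, which were higher. In Prc1, which has 2 windows, the word begins at base -5 of 1 start site, so that it takes in the start base, and at base -30 of the other.

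For the S-phase class, sites with an E2F word in capitals are shown for 3 helicase subunits and Uhrf1, chosen after the matches were seen, because the S-phase genes with the smallest adjusted p and a window (Ccne1, Rrm2 and E2f1) held none of the 4 words. They lie at chr1:20820263-20820292 (minus) for Mcm3, chr8:75109345-75109374 (plus) for Mcm5, chr1:128359734-128359763 (minus) for Mcm6 and chr17:56304117-56304146 (plus) for Uhrf1. In Mcm5 a second word, TTTGGCGC on the other strand, overlaps the first.
Mcm3: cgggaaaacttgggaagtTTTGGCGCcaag
Mcm5: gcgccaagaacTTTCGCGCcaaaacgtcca
Mcm6: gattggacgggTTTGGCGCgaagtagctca
Uhrf1: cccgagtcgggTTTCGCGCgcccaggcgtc
The upstream stretches of Bub1 (chr2:127831866-127832109, minus), Cenpf (chr1:189688087-189688336, minus) and Rrm2 (chr12:24708004-24708240, plus) follow, with CCAAT or its reverse ATTGG in capitals. They are shown because Bub1 and Cenpf carry a pair of the boxes, as 57.1% of mitotic, 41.2% of S-phase and 11.7% of all windows did, whereas Rrm2 carries a single one.
Bub1: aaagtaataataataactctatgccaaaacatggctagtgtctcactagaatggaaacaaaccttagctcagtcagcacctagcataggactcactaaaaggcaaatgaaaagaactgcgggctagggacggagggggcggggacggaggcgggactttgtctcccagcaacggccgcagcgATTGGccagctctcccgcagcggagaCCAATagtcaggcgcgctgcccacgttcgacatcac
Cenpf: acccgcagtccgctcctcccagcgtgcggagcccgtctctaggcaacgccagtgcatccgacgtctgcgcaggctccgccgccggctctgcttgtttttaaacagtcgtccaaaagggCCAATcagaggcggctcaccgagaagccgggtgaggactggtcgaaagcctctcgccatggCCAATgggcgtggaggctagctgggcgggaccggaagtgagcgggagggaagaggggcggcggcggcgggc
Rrm2: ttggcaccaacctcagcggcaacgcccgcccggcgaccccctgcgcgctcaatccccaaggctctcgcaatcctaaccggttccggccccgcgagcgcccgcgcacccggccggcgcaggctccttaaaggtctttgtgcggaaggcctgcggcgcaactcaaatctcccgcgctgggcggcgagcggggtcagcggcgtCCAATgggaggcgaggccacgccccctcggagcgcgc

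P14 stroma was first compared with normal adult stroma, a comparison the design names. At P14, 12 of the 18 S-phase genes and 9 of the 25 mitotic genes were higher, 1 mitotic gene (Plk1) was lower, and 6 and 15 did not pass. A gene passed at a Benjamini-Hochberg adjusted p under 0.05 in edgeR's quasi-likelihood F test over all 18727 genes tested, of which 30.9% were called, 14.9% higher and 16.0% lower. The median log2 fold change was 0.91 for the S-phase and 0.84 for the mitotic genes, against -0.002 for all genes, and 42 of the 43 genes had a value above 0. Values of the 4 P14 libraries all lay above those of the 4 normal adult libraries for 10 S-phase and 10 mitotic genes, as for 21.6% of all genes. In bulk samples, fewer dividing cells and less of a transcript per cell cannot be told apart.

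**Figure D1:**
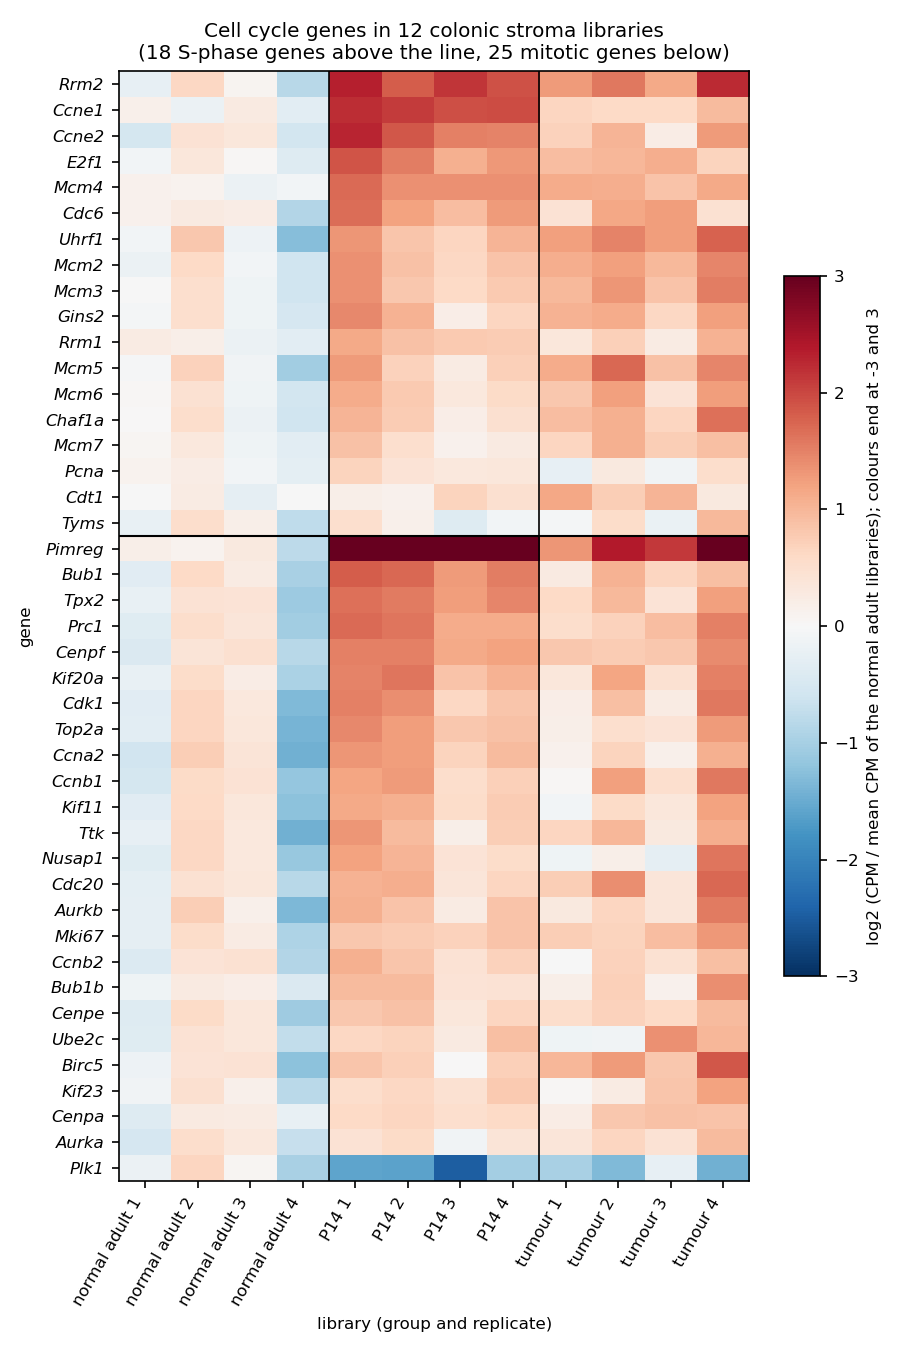
Each row is 1 of the 43 genes and each column 1 of the 12 libraries; colour is log2 of the gene's CPM over its mean CPM in the normal adult libraries, with S-phase genes above the line and mitotic genes below, each ordered by their P14 change. Most rows are red in P14 and tumour, Plk1 at the bottom is blue there, and within normal adult replicate 4 is the lowest library for 24 of 25 mitotic and 16 of 18 S-phase genes.

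Among the genes that open S phase, the E-type cyclins changed most at P14. Ccne1 (cyclin E1) stood at 3.46, 2.77, 3.75 and 2.52 CPM in normal adult replicates 1 to 4 and at 14.5, 13.4, 11.9 and 12.2 CPM in P14. Every P14 value was above every normal adult value, with a log2 fold change of 2.06 ± 0.19 (SE, adjusted p = 7.53e-05). Its paralogue Ccne2 rose from 5.46 ± 1.96 to 19.3 ± 5.21 CPM (SD, n = 4). E2f1, the transcription factor of the G1 to S transition, stood at 2.50, 3.36, 2.74 and 2.04 CPM in normal adult and at 9.84, 7.65, 5.56 and 6.53 CPM in P14, again without overlap (log2 fold change 1.48 ± 0.24, adjusted p = 0.00109). Of the licensing factors, Cdc6, which loads the helicase, rose from 2.65 ± 0.816 to 6.51 ± 1.46 CPM. Cdt1, its partner in loading, stood at 5.10 ± 0.764 and 6.64 ± 1.19 CPM and did not pass (adjusted p = 0.222 in edgeR's test).

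Of the 6 subunits of the MCM helicase, 4 rose at P14 and Mcm5 and Mcm7 did not pass. Mcm4 stood at 24.3, 23.7, 19.5 and 20.9 CPM in normal adult and at 71.9, 56.7, 57.2 and 56.8 CPM in P14. These groups lay far apart, with a log2 fold change of 1.46 ± 0.13 and the smallest adjusted p of the 43 genes (6.95e-05). Log2 fold changes of the other 5 subunits ranged from 0.47 for Mcm7 to 0.96 for Mcm2. Gins2, a subunit of the GINS complex that travels with the helicase, rose from 3.12 ± 0.943 to 5.85 ± 2.14 CPM.

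For nucleotide supply, Rrm2, the small subunit of ribonucleotide reductase, stood at 6.47, 11.7, 8.11 and 4.33 CPM in normal adult and at 38.6, 26.9, 34.0 and 28.6 CPM in P14. The lowest P14 value was above the highest normal adult value, and the log2 fold change was 2.06 ± 0.31 (adjusted p = 0.000785). Rrm1, the large subunit, rose less, from 74.2 ± 13.9 to 138 ± 16.7 CPM. Tyms, thymidylate synthase, stood at 23.8 ± 8.71 and 25.2 ± 6.56 CPM and did not pass (log2 fold change 0.08 ± 0.31, adjusted p = 0.87). Pcna stood at 111 ± 16.8 and 150 ± 16.9 CPM without overlap but did not pass (adjusted p = 0.0829). Of the chromatin proteins that follow the fork, Uhrf1, which reads hemimethylated DNA, rose from 17.4 ± 9.60 to 34.2 ± 7.06 CPM, while Chaf1a, of the histone chaperone CAF-1, did not pass (adjusted p = 0.0972).

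Among mitotic genes Pimreg had the largest change at P14. It stood at 1.12, 1.07, 1.23 and 0.579 CPM in normal adult and at 13.6, 14.5, 8.88 and 9.63 CPM in P14, with no overlap and a log2 fold change of 3.54 ± 0.44 (adjusted p = 0.0003). Bub1, a kinase of the spindle checkpoint, stood at 4.13, 8.00, 6.20 and 2.66 CPM in normal adult and at 18.5, 17.4, 12.8 and 15.1 CPM in P14. All P14 values were again the higher ones (log2 fold change 1.60 ± 0.30, adjusted p = 0.00236). Tpx2, which targets Aurora A to the spindle, stood at 10.2, 16.1, 15.8 and 5.62 CPM in normal adult and at 37.8, 35.1, 28.5 and 32.9 CPM in P14 (log2 fold change 1.49 ± 0.29, adjusted p = 0.00286). For Cenpf, a kinetochore protein, normal adult libraries held 15.2, 26.6, 28.6 and 11.5 CPM and P14 libraries 58.3, 58.7, 45.0 and 47.4 CPM (log2 fold change 1.35 ± 0.27, adjusted p = 0.0031). Neither gene overlapped between the groups.

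The other mitotic genes that rose were Prc1, the bundler of the central spindle, Kif20a, a motor of cytokinesis, Top2a, Mki67 and Cenpa, the centromeric histone, with log2 fold changes of 0.59 (Cenpa) to 1.41 (Prc1). The A and B cyclins and their kinase Cdk1, which drive entry into mitosis, did not pass. Cdk1 stood at 19.2, 37.5, 30.3 and 9.58 CPM in normal adult and at 68.8, 63.4, 37.4 and 42.9 CPM in P14, so that the lowest P14 value lay just under the highest normal adult one (log2 fold change 1.14 ± 0.41, adjusted p = 0.0508). Ccna2, Ccnb1 and Ccnb2 had log2 fold changes of 1.07, 0.96 and 0.78 with adjusted p of 0.0521, 0.0851 and 0.0612. The motors Cenpe, Kif11 and Kif23, the checkpoint kinases Ttk and Bub1b, and Nusap1, which bundles spindle microtubules, had log2 fold changes of 0.60 (Kif23) to 0.89 (Kif11) and did not pass. The Aurora kinases Aurka and Aurkb, Birc5 (survivin, of the chromosomal passenger complex), and Ube2c and Cdc20, of the anaphase-promoting complex, did not pass either, with log2 fold changes of 0.34 to 0.82.

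**Figure D2:**
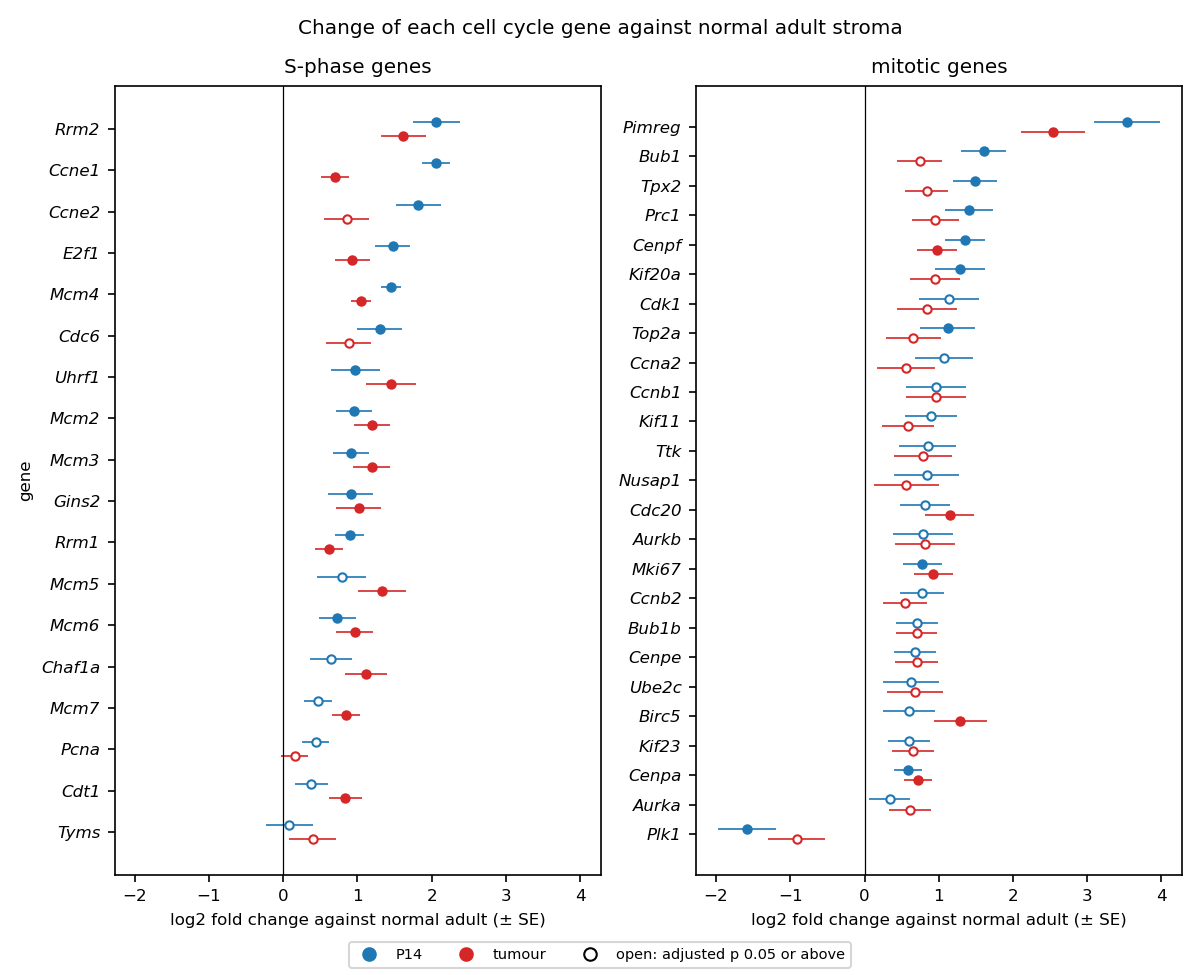
Points are log2 fold changes against normal adult with SE bars, P14 in blue and tumour in red, for the S-phase (left) and mitotic genes (right); filled points passed an adjusted p under 0.05. Both groups lie right of 0 for every gene except Plk1; 12 and 14 of the S-phase genes are filled for P14 and tumour, and 10 and 6 of the mitotic genes.

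Plk1, the polo-like kinase that drives entry into and exit from mitosis, was lower at P14. It stood at 11.1, 19.5, 13.1 and 6.44 CPM in normal adult and at 4.20, 4.12, 2.25 and 6.17 CPM in P14. All P14 values were below the normal adult ones, but P14 replicate 4 came close to normal adult replicate 4 (log2 fold change -1.58 ± 0.39, adjusted p = 0.00878). Without normal adult replicates 2 and 3 the log2 fold change was -1.07 (adjusted p = 0.144). The annotation places Gm44985, a transcript yet to be checked by experiment, on the opposite strand, overlapping Plk1 (chromosome 7, 122159439 to 122169873, plus strand, GRCm38) by 1016 bases. The strand setting of the counting is not given in the sources used here, so reads of the 2 genes may not be told apart. Gm44985 stood at 4.71, 10.7, 6.09 and 4.09 CPM in normal adult, at 0.357, 0.279, 0.380 and 1.87 CPM in P14 and at 1.44, 0.788, 3.19 and 0 CPM in tumour. Its log2 fold change at P14 was -3.13 ± 0.87 (adjusted p = 0.0162). Both Plk1 and Gm44985 were highest in normal adult replicate 2 and, within P14, in replicate 4, and so was the sum of 18 epithelial markers (15270 CPM in normal adult replicate 2 and 3096 CPM in P14 replicate 4). Replicate 2 was the highest normal adult library for 21 of the 25 mitotic and 15 of the 18 S-phase genes. Within P14, replicate 4 was the highest library for 4 mitotic and 0 S-phase genes. In edgeR's fit with the epithelial sum as a covariate the log2 fold change of Plk1 at P14 was 0.20 (adjusted p = 0.927). The direction turned and the call was lost. However, the epithelial sum did not overlap between P14 and normal adult, and this fit called only 18 genes higher and 23 lower among all genes. It therefore cannot separate the epithelial sum from the group. The part of Gm44985 reads in the Plk1 value was not tested.

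**Figure D3:**
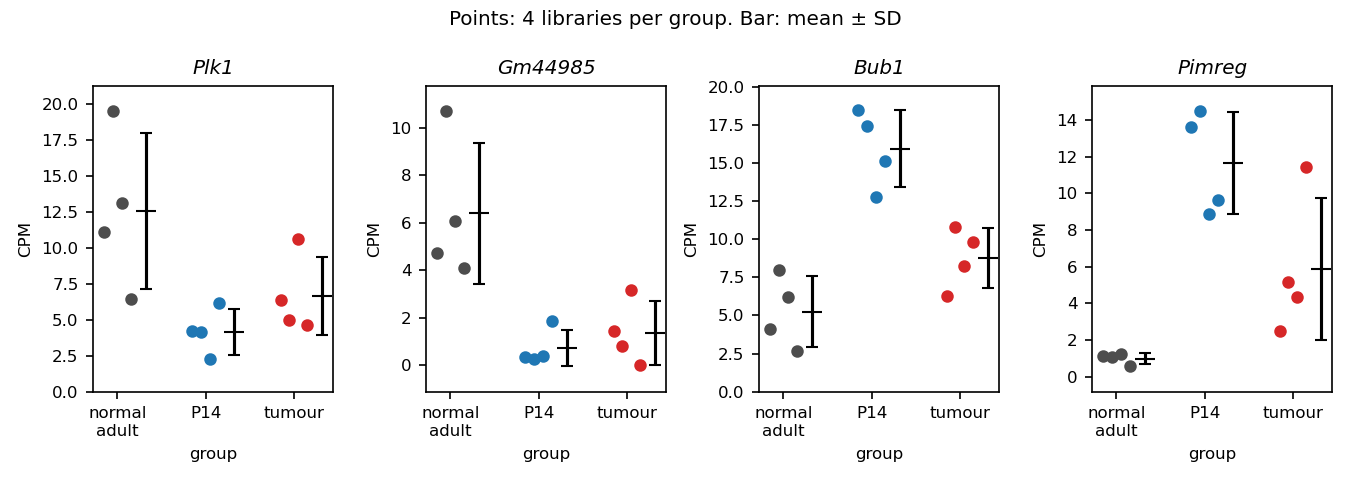
CPM of Plk1, of Gm44985, which overlaps it on the other strand, of Bub1 and of Pimreg in each of 4 libraries per group, with the mean and SD. Plk1 and Gm44985 are highest in normal adult, whereas Bub1 and Pimreg are lowest there.

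Kif20a is overlapped on the opposite strand by Cdc23, a subunit of the anaphase-promoting complex, over 2327 bases, and Cdc23 was also higher at P14 (46.8 ± 6.83 against 71.6 ± 15.2 CPM, log2 fold change 0.61 ± 0.21, adjusted p = 0.0428). Rccd1, which lies opposite Prc1, was higher as well, at 10.3 ± 0.974 against 15.2 ± 2.53 CPM (adjusted p = 0.0211). Ccne2, Chaf1a and Gins2 are overlapped by Ints8, Ubxn6 and Gse1, of which none passed at P14. Mki67, Ccna2, Nusap1 and Cdc20 lie opposite Gm45240, Exosc9, Oip5 and Elovl1, and Mcm7 lies opposite Cops6 and Ap4m1. Of these overlapping genes only Elovl1 passed at P14, as lower (adjusted p = 0.0425 in edgeR's test). Values of these genes carry the same uncertainty of strand. Rrm1 is overlapped by Gm45399 on its own strand over 1016 bases, and Gm45399 did not pass at P14 (adjusted p = 0.187, same test).

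With only the libraries that had Xist above 100 CPM, 2 against 2, edgeR's test called 0 mitotic and 1 S-phase gene at P14, and 18 genes higher and 5 lower among all genes. The median log2 fold changes in those libraries were 1.16 for mitotic and 1.45 for S-phase genes. Leaving out any 1 library left 7 of the 10 mitotic and 9 of the 12 S-phase calls in place each time. Those lost at least once were Cenpa, Mki67, Top2a, Gins2, Mcm6 and Uhrf1.

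The second comparison the design names set tumour stroma against normal adult stroma. In tumour, 14 of the 18 S-phase genes and 6 of the 25 mitotic genes were higher, none was lower, and 4 and 19 did not pass. Over all genes, 18.9% were called, 10.6% higher and 8.29% lower. The median log2 fold change was 0.95 for S-phase and 0.74 for mitotic genes, against 0.001 for all genes. All tumour values lay above all normal adult values for 14 S-phase and 4 mitotic genes, as for 11.0% of all genes.

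The whole MCM ring rose in tumour, all 6 subunits passing, with log2 fold changes of 0.85 (Mcm7) to 1.33 (Mcm5). Mcm4 stood at 47.7, 47.1, 39.9 and 48.3 CPM in the tumour libraries, all above the normal adult values given above (log2 fold change 1.05 ± 0.13, adjusted p = 0.000294). Mcm2 stood at 15.9, 27.3, 16.9 and 11.9 CPM in normal adult and at 38.0, 42.6, 35.1 and 49.9 CPM in tumour (log2 fold change 1.20 ± 0.24, adjusted p = 0.00514). Its partner in the ring, Mcm3, stood at 19.2, 27.5, 17.8 and 12.6 CPM and at 38.0, 47.9, 35.0 and 55.7 CPM (log2 fold change 1.19 ± 0.25, adjusted p = 0.00574). Neither overlapped, and normal adult replicate 2 was nearest to the tumour libraries in both.

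Rrm2 stood at 18.5, 22.8, 16.9 and 36.2 CPM in tumour, above all normal adult libraries, with replicate 4 highest (log2 fold change 1.62 ± 0.31, adjusted p = 0.00355). Uhrf1 rose to 47.6 ± 8.70 CPM, Chaf1a from 7.95 ± 2.61 to 17.3 ± 5.48 CPM and Cdt1 to 9.12 ± 2.25 CPM. Ccne1 rose to 5.08 ± 0.665 CPM, by 0.70 ± 0.19 on the log2 scale (adjusted p = 0.022). E2f1 rose to 5.06 ± 0.626 CPM. Ccne2, Cdc6, Pcna and Tyms did not pass, with log2 fold changes of 0.85, 0.88, 0.16 and 0.40.

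Of the mitotic genes, Pimreg again changed most, at 2.52, 5.19, 4.35 and 11.4 CPM in tumour, each above every normal adult library and with replicate 4 well above the others (log2 fold change 2.54 ± 0.43, adjusted p = 0.00177). Birc5 stood at 4.33, 6.38, 6.53 and 2.04 CPM in normal adult and at 9.63, 11.7, 8.48 and 17.4 CPM in tumour, without overlap (log2 fold change 1.29 ± 0.35, adjusted p = 0.0236). Mki67 stood at 68.2, 120, 97.2 and 42.9 CPM and at 137, 130, 156 and 201 CPM (log2 fold change 0.93 ± 0.26, adjusted p = 0.0251). Here too the groups did not overlap, though normal adult replicate 2 and tumour replicate 2 lay close. Cenpa stood at 9.52, 14.8, 14.6 and 10.5 CPM and at 14.5, 21.7, 22.8 and 22.4 CPM (log2 fold change 0.72 ± 0.19, adjusted p = 0.0197). Its lowest tumour library, replicate 1, lay among the normal adult values. Cdc20 and Cenpf also passed. The cyclins, Cdk1, the Aurora kinases, Top2a, Bub1 and Bub1b did not, with log2 fold changes of 0.55 (Ccnb2) to 0.96 (Ccnb1), and Plk1 had a log2 fold change of -0.91 ± 0.38 (adjusted p = 0.119). Prc1, Tpx2 and Kif20a came close, with adjusted p of 0.0546, 0.0644 and 0.0672, and Cenpe, Kif11, Kif23, Ttk, Nusap1 and Ube2c had log2 fold changes of 0.56 (Nusap1) to 0.79 (Ttk).

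The mitotic count in tumour rested on single libraries. It was 1 without normal adult replicate 1, 3 without normal adult replicate 4, 2 without tumour replicate 4 and 10 without normal adult replicate 2. Pimreg alone passed with any 1 library left out. Birc5 and Mki67 were lost without normal adult replicate 1 or tumour replicate 4, and Cenpa without normal adult replicate 1 or 4. For the S-phase genes the count was 9 without normal adult replicate 3, 8 without normal adult replicate 4 and up to 15 otherwise, and 7 of 14 calls held throughout: Mcm2, Mcm3, Mcm4, Mcm5, Mcm7, Rrm2 and Uhrf1. With the Xist-positive libraries alone, 0 mitotic and 7 S-phase genes were called, with medians of 0.98 and 1.15. Among all 18862 genes tested in that fit, 369 were called higher and 275 lower.

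Both comparisons share the normal adult libraries, so their calls are not independent. Higher in both were 10 S-phase genes (Ccne1, E2f1, Gins2, Mcm2, Mcm3, Mcm4, Mcm6, Rrm1, Rrm2 and Uhrf1) and 4 mitotic genes (Cenpa, Cenpf, Mki67 and Pimreg). Bub1, Kif20a, Prc1, Top2a and Tpx2 passed at P14 and not in tumour, and Birc5 and Cdc20 in tumour and not at P14.

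The direct test between tumour and P14 called 4 of the 43 genes, all lower in tumour, and 39 did not pass, whereas 37.0% of all genes were called, 19.7% higher and 17.3% lower. The median log2 fold change was 0.17 for S-phase, -0.06 for mitotic and 0.05 for all genes. Of the genes that passed in only 1 of the comparisons with normal adult, Bub1 and Ccne2 differed in this test. Ccne1, at 4.86, 4.69, 4.71 and 6.08 CPM in tumour, lay under every P14 library and above every normal adult library (log2 fold change tumour against P14 -1.36 ± 0.19, adjusted p = 0.00023). Ccne2 stood at 26.5, 19.8, 15.5 and 15.4 CPM in P14 and at 8.87, 11.1, 6.37 and 13.2 CPM in tumour (log2 fold change -0.97 ± 0.30, adjusted p = 0.023). Mcm4 also lay below every P14 library (log2 fold change -0.41 ± 0.13, adjusted p = 0.0267). Bub1 stood at 6.30, 10.8, 8.26 and 9.79 CPM in tumour, below all P14 libraries (log2 fold change -0.86 ± 0.30, adjusted p = 0.0388). Of these 4 genes, Ccne1 passed with any 1 library left out. Bub1 was lost without P14 replicate 1, 2 or 4 or tumour replicate 1, 3 or 4, Ccne2 without P14 replicate 1 or tumour replicate 1 or 3, and Mcm4 without P14 replicate 1 or tumour replicate 3. In the Xist-positive libraries 0 mitotic and 1 S-phase gene were called, and among all 18862 genes tested 978 were higher and 1021 lower.

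The levels of the members were also summed per library for each class. The S-phase genes summed to 113, 138, 103 and 81.0 CPM per kb in normal adult, to 232, 182, 163 and 173 in P14, and to 153, 199, 145 and 221 in tumour. The mitotic genes summed to 74.0, 134, 114 and 45.7 CPM per kb in normal adult, to 204, 193, 136 and 158 in P14, and to 111, 150, 127 and 222 in tumour. S-phase sums of P14 and tumour libraries all lay above the normal adult ones, whereas mitotic sums of tumour replicates 1 and 3 lay within the normal adult range. The ratio of S-phase to mitotic sum was 1.31 ± 0.409 in normal adult, 1.09 ± 0.107 in P14 and 1.21 ± 0.175 in tumour (SD, n = 4). Every P14 and tumour ratio lay between the lowest (0.904) and the highest (1.77) normal adult ratio. The share of genes called differed between the classes in tumour, while the ratio of their sums stayed within the spread of the normal adult libraries. Pcna, which passed in neither comparison with normal adult, weighs heavily in this ratio. It held 46.1, 62.4 and 51.4 CPM per kb of mean S-phase sums of 108.8, 187.5 and 179.7 in normal adult, P14 and tumour. From mean log2 values, which weigh each gene alike, the ratio was 1.178, 1.175 and 1.281 in the same order. No test of the ratio was made.

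**Figure D4:**
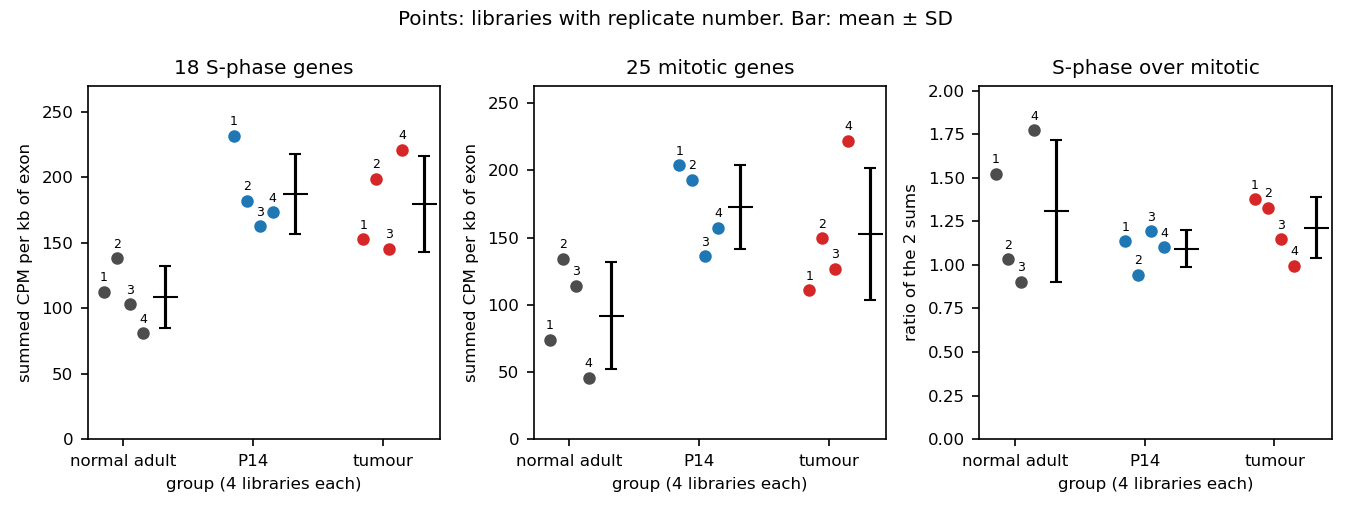
Summed CPM per kb of exon of the S-phase genes (left) and the mitotic genes (middle) and their ratio (right) in each library, with the replicate number at each point and the mean and SD as bars. Normal adult libraries spread widely in the mitotic sum, from 45.7 to 134, and span all ratios of the other groups.

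The classes differed in their spread within the normal adult group. The median coefficient of variation over the 4 normal adult libraries was 43.3% for mitotic and 30.6% for S-phase genes, against 15.9% for all genes with a mean of 1 CPM or more. It was 20.7% and 23.3% in P14 (all genes 17.3%), and 37.2% and 24.7% in tumour (all genes 29.4%). Normal adult replicates 2 and 3 both lay above replicates 1 and 4 for 24 of the 25 mitotic genes and 6 of the 18 S-phase genes, and for 34.9% of all genes with a mean of 1 CPM or more. In P14, replicate 3 was lowest for 24 mitotic genes and replicate 1 highest for 17 S-phase genes. In tumour, replicate 4 was highest for 21 mitotic and 13 S-phase genes.

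Markers of other cell types, among them those the sort should remove, differed between the groups and libraries. The 18 epithelial markers, all listed and none at 0 in any library, summed to 7377, 15270, 13640 and 7384 CPM in normal adult replicates 1 to 4, to 466.8 to 3096 CPM in P14 and to 1658 to 6418 CPM in tumour. Normal adult replicates 2 and 3 were thus high in both the epithelial sum and the mitotic genes. Epcam, the sort's own epithelial antigen, ranged from 704.5 to 1589 CPM in normal adult, from 38.98 to 291 in P14 and from 212 to 767 in tumour. P14 and tumour had lower epithelial sums and higher cell cycle genes than normal adult. With the epithelial sum as a covariate, 0 members passed in edgeR's test at P14, where 18 genes were higher and 23 lower among all genes, and the median log2 fold changes were 1.31 for mitotic and 0.92 for S-phase genes. In tumour, 6 mitotic and 8 S-phase genes passed with that covariate, with medians of 0.96 and 0.98. Among all 18727 genes, 1658 were higher and 1261 lower in tumour in that fit.

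Of 10 markers of squamous epithelium, which lines the anus and not the colon, 9 were listed. They summed to 5747 to 15580 CPM in tumour, against 79.3 to 534 in normal adult and 94.9 to 216 in P14, and Krt13 and Krt6a were at 0 in 1 P14 library each. Tumour replicate 4 was highest both in this sum and in the mitotic sum. A fit with this sum as a covariate, chosen after seeing the data, called 0 of all 18727 genes in tumour against normal adult, where its medians were -0.08 for mitotic and 0.94 for S-phase genes. The 7 markers listed for crypt base and progenitor epithelium, the dividing cells of the crypt, summed to 214 to 279 CPM in normal adult, 223 to 344 in P14 and 285.5 to 345 in tumour. Lrig1 held most of this sum (means of 167, 171 and 112 CPM in the same order) and Lgr5 little (3.78, 2.47 and 10.6). Its members went opposite ways: Smoc2 had higher means in P14 and tumour (29.5, 57.8 and 87.2 CPM) and Myb lower ones (22.25, 4.11 and 9.84). The sum is therefore no measure of dividing crypt cells. The 13 leukocyte markers summed to 165 to 219, 27.1 to 45.0 and 14.2 to 135 CPM. The exact two-sided permutation test on the epithelial sums gave p = 0.0286, the smallest that 4 against 4 libraries allow, in both comparisons with normal adult (adjusted 0.0429 at P14 and 0.0536 in tumour, over 15 marker lists). The crypt progenitor sum gave p = 0.4 at P14 and p = 0.0286 in tumour (adjusted 0.4 and 0.0536, same exact test). The epithelial sum of normal adult overlapped neither other group, nor did the squamous sum of tumour. Fits with these sums as covariates therefore cannot separate such cells from the group. The part of these cells in the cell cycle results was not tested.

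Markers of the stromal types also differed. At P14 the 8 fibroblast markers summed to 70720 to 92220 CPM against 25930 to 32890 in normal adult, the 10 smooth muscle markers to 5348 to 10330 against 1374 to 2419, and the 8 pericyte markers to 1875 to 2550 against 508 to 910. In tumour the pericyte sum was 1842 to 3827 CPM, also above normal adult, while the fibroblast sum (10980 to 29390) and the smooth muscle sum (1492 to 2781) overlapped normal adult. Lower than normal adult in both groups was the sum of 5 erythroid markers, at 32.04 to 47.06 CPM in normal adult, 5.51 to 8.09 in P14 and 1.93 to 13.1 in tumour. In tumour the 9 endothelial markers summed to 29.6 to 82.9 CPM against 228 to 328 in normal adult, and the 5 neutrophil markers to 20.9 to 840 against 0.721 to 1.84. The B and plasma cell sum (208 to 1184 CPM in normal adult), the mesothelium sum (58.1 to 103.5) and the neutrophil sum were lower at P14, at 0.403 to 23.8, 6.81 to 47.8 and 0.248 to 0.553. Krt7 alone held most of the mesothelium sum, with means of 72.9 CPM in normal adult and 16.6 in P14. Of its other markers, Msln, Upk3b and Lrrn4 had lower means at P14 and Wt1 did not (1.90 and 2.28 CPM). Each of these sums without overlap gave p = 0.0286 in the exact permutation test (adjusted 0.0429 at P14 and 0.0536 in tumour). The part of these types in the cell cycle results was not tested.

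**Figure D5:**
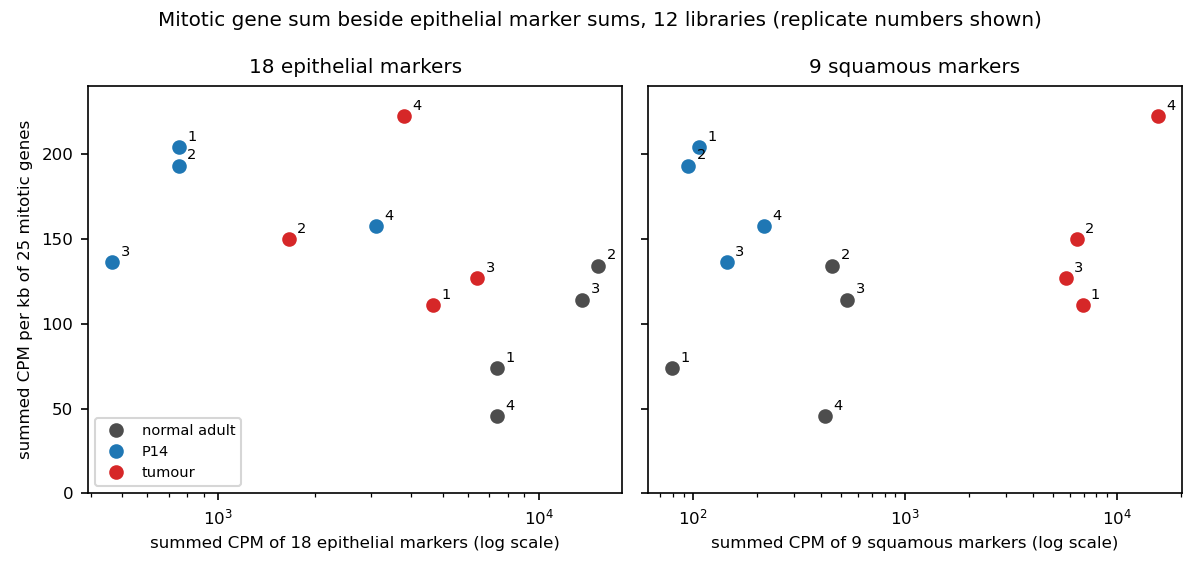
Summed CPM per kb of the 25 mitotic genes in each library against the summed CPM of 18 epithelial markers (left) and of 9 squamous markers (right), both on log axes, with replicate numbers. Within normal adult, replicates 2 and 3 are high in both the mitotic and the epithelial sum; tumour libraries stand apart on the squamous axis.

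Other genes of the cycle were read from lists that are no part of the 43. Their counts are to be read against the share of all genes called, which was 14.9% higher and 16.0% lower at P14, 10.6% higher and 8.29% lower in tumour, and 19.7% higher and 17.3% lower in tumour against P14. Of 44 further replication genes, 12 rose at P14 (27.3%) and 16 in tumour (36.4%), none fell, and the medians were 0.57 and 0.65. Brca1, of homologous recombination, rose from 7.42 ± 3.53 CPM to 19.9 ± 4.28 at P14 and 18.7 ± 5.62 in tumour. Gins1, a partner of Gins2, rose in tumour from 3.69 ± 0.778 to 9.32 ± 3.41 CPM. Clspn (claspin, of the replication checkpoint) rose from 7.44 ± 3.21 CPM to 18.6 ± 2.98 at P14 and 23.0 ± 11.4 in tumour, and Pole, the leading-strand polymerase, from 8.25 ± 3.64 to 19.2 ± 4.32 and 24.6 ± 2.65. Of 58 further mitosis genes, 32 rose (55.2%) and 1 fell at P14 and 12 rose in tumour (20.7%), with medians of 0.90 and 0.62. Anln (anillin, of the contractile ring) rose from 14.1 ± 3.91 CPM to 44.8 ± 8.73 and 34.4 ± 8.77. Nuf2, of the kinetochore, rose at P14 from 7.15 ± 3.84 to 27.6 ± 8.22 and did not pass in tumour (17.6 ± 9.90, adjusted p = 0.061). Aspm, of the spindle poles, rose from 12.3 ± 4.81 CPM to 41.7 ± 7.97 at P14 and 24.99 ± 9.29 in tumour, and Troap, a spindle protein, from 0.469 ± 0.303 to 2.06 ± 0.294 and 2.05 ± 1.35. Ncapg2, of condensin II, and Kif22, a chromosome arm motor, also rose in both, with log2 fold changes in tumour of 1.10 and 1.05. In tumour against P14, 1 and 3 of the replication and 1 and 2 of the mitosis genes were higher and lower. Among the lower was Cdc7, the kinase that fires origins, at 33.5 ± 10.3 CPM in P14 and 17.7 ± 4.12 in tumour. Pole2, a subunit of the leading-strand polymerase, Slbp, which binds histone mRNA, Depdc1a and the kinetochore scaffold Knl1 were lower too, with log2 fold changes of -0.73, -0.62, -1.57 and -1.04. Dnmt1, the maintenance DNA methyltransferase that Uhrf1 recruits, and Arhgap11a were higher in tumour than in P14, at 118 ± 4.51 against 91.6 ± 10.7 CPM (adjusted p = 0.044) and 15.7 ± 4.05 against 8.44 ± 1.80 CPM (adjusted p = 0.0287).

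The G1 cyclins and kinases differed between the groups. Of 10, 5 rose at P14 (50% against 14.9% of all genes) and 3 in tumour (30% against 10.6%). Ccnd1 (cyclin D1) stood at 27.3, 39.7, 35.7 and 25.6 CPM in normal adult, at 38.5, 35.1, 35.2 and 38.1 in P14 and at 71.7, 51.8, 60.1 and 55.9 in tumour. It was thus highest in all tumour libraries (log2 fold change against normal adult 0.90 ± 0.16, adjusted p = 0.0023), with P14 inside the normal adult range. Ccnd3 showed the other pattern, at 20.04 ± 1.21, 36.0 ± 2.41 and 21.4 ± 2.96 CPM (P14 against normal adult adjusted p = 0.000884, tumour against P14 adjusted p = 0.000968). Ccnd2 stood at 95.0 ± 16.6, 131 ± 11.2 and 146 ± 49.7 CPM and did not pass. Skp2, the ubiquitin ligase subunit that removes p27, rose from 4.32 ± 0.385 to 11.6 ± 1.55 CPM at P14 and was lower in tumour than in P14 (6.12 ± 0.916 CPM, adjusted p = 0.00191). Cdk2, the partner of cyclin E, rose at P14 from 18.9 ± 2.67 to 37.0 ± 2.59 CPM and was lower in tumour than in P14 (23.2 ± 2.32 CPM, adjusted p = 0.00263). Mycn rose at P14 from 3.38 ± 1.35 to 7.84 ± 1.27 CPM. Cdk4, the partner of the D cyclins, rose in both, from 57.3 ± 4.18 to 102 ± 22.6 and 98.5 ± 17.3 CPM. Myc rose in tumour and did not pass at P14, at 21.7 ± 2.81 CPM in normal adult, 19.6 ± 5.54 in P14 and 36.6 ± 8.58 in tumour, and was higher in tumour than in P14 (adjusted p = 0.00838).

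Of 7 CDK inhibitors, 5 were higher (71.4% against 14.9% of all genes) and 1 lower at P14. The 1 that was higher in tumour (14.3%) is near the 10.6% of all genes. Cdkn2b (p15) stood at 15.5, 33.4, 31.2 and 17.8 CPM in normal adult, at 2.12, 2.14, 1.73 and 5.28 in P14 and at 10.2, 6.84, 25.8 and 10.8 in tumour. It was lowest in all P14 libraries (log2 fold change -3.11 ± 0.48, adjusted p = 0.00092). Within normal adult, replicates 2 and 3 were the high ones, as for the epithelial sum and for 34.9% of all genes with a mean of 1 CPM or more. Cdkn1c (p57) rose from 9.03 ± 1.43 to 30.8 ± 13.6 CPM at P14 (adjusted p = 0.0276) and Cdkn2c (p18) from 15.5 ± 1.36 to 39.3 ± 8.47 (adjusted p = 0.000526), and both were lower in tumour than in P14. Cdkn1b (p27) stood at 91.5 ± 6.67, 139 ± 9.97 and 79.2 ± 16.2 CPM and Cdkn2d (p19) at 13.4 ± 2.27, 26.8 ± 5.67 and 16.2 ± 6.79 CPM, both higher at P14. Cdkn1a (p21) stood at 33.4 ± 3.71, 17.1 ± 7.02 and 31.9 ± 14.6 CPM and did not pass. Cdkn2a, called higher in both comparisons, was near the limit of detection in normal adult (0.0641, 0, 0 and 0.0341 CPM) and stood at 0.357, 0.341, 0.138 and 0.0558 CPM in P14 and at 0.900, 0.752, 1.66 and 0.858 CPM in tumour.

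Of 20 genes of the RB, E2F, DREAM and MuvB complexes, 7 rose and 2 fell at P14, and 4 rose in tumour. The shares that rose were 35% and 20%, against 14.9% and 10.6% of all genes, and the 2 that fell are fewer than the 16.0% of all genes would give. Foxm1, the activator that joins MuvB at CHR elements, stood at 2.15, 3.47, 2.63 and 2.25 CPM in normal adult, at 6.29, 6.69, 7.46 and 7.54 in P14 and at 6.25, 4.62, 7.94 and 8.15 in tumour. It was higher in every P14 and tumour library than in any normal adult library (log2 fold changes 1.41 ± 0.24 and 1.36 ± 0.24, adjusted p = 0.00131 and 0.00219). Mybl2 (B-MYB), the other activator of MuvB, rose in tumour from 2.33 ± 1.02 to 5.70 ± 1.35 CPM (adjusted p = 0.0123) and stood at 3.08 ± 0.312 in P14 (adjusted p = 0.351). In the tumour against P14 test it was higher in tumour (adjusted p = 0.0361). E2f7, an E2F repressor, rose at P14 from 1.45 ± 0.409 to 4.15 ± 0.781 CPM. Tfdp1, the dimer partner of the E2Fs, and Rbl1 (p107) rose in both, with log2 fold changes of 0.53 and 0.48 at P14 and 0.67 and 0.53 in tumour. Lin37, a subunit of the MuvB core, fell at P14 from 4.96 ± 1.07 to 3.29 ± 0.307 CPM and stood at 5.71 ± 0.596 in tumour. Lin9, a MuvB core subunit, rose at P14 from 8.11 ± 1.35 to 15.4 ± 2.17 CPM, and the repressor E2f4 fell from 12.7 ± 1.25 to 8.44 ± 1.20 CPM (adjusted p = 0.0228) and stood at 16.2 ± 2.96 in tumour. The sites of Bub1, Cenpf, Prc1 and Plk1 printed above are of the kind these complexes read. Those 4 genes were picked by their test results, so their directions at P14 do not describe genes with such sites.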

How the data were processed

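RNA of 12 sorted samples was sequenced as stranded polyadenylated libraries with single-end reads of 75 bases, per the labels' protocols. The authors deposited a table of raw gene counts without normalization, which has a column for each library. STAR 2.4.2a, edgeR 3.28.0 and GRCm38 are named in the submitters' processing notes, with no roles. The sources used here do not give the counting tool, annotation or strand setting. Symbols came from GENCODE M21 (19012 of 19049 genes matched, 37 did not).

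Counts were tested in R 4.3.3 with edgeR 4.0.16 (quasi-likelihood F test), all 12 libraries in 1 fit, with TMM factors and filterByExpr (minimum count 10, minimum total 15; 18727 genes kept, 322 removed). P-values were adjusted over all genes kept. SEs come from the fit. The common biological coefficient of variation was 0.333. CPM per kb used the exon union length. The fit was tested on simulated counts. Tumour replicate 4, the shallowest library at 15449444 counts, is the least precise.

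Values in every library are given for up to 4 called members per class and comparison with the smallest adjusted p, and for members called against their class. From the other lists, genes with the largest called changes and a mean of at least 1 CPM were named, along with CDK inhibitors and D cyclins whatever their call. Cdk1, Epcam and the genes overlapping members were named after their values were seen. The members and lists were chosen with earlier results of these data known. The series text gives 4 mice per group. Title numbers were not taken as pairs. Deviations from the group means correlated by more than 0.1 in 3 of the 6 pairs that share a number. All 3 lay among the libraries numbered 2: normal adult replicate 1, P14 replicate 2 and tumour replicate 2 (0.265 to 0.408). What these libraries share was not tested. Alternatives used DESeq2 1.42.0, limma 3.58.1 and other fits listed in the closing section.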

Additional observations from a re-analysis of the deposited data

Results flagged for a closer look

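Of 138 groups of 4 libraries, 129 for the single genes and 9 for the 2 class sums and their ratio, 7 held a library whose gap to its nearest neighbour exceeded the share of the group's range that Dixon's test allows at 95%. Chance gives about 1 in 20, which is near the 7 of 138 found. Tumour replicate 4 was the high one in 3: Cenpf at 54.7 CPM (others 34.5 to 36.0), Nusap1, a spindle protein, at 53.8 CPM (others 14.8 to 20.1) and Ccne1 at 6.08 CPM (others 4.69 to 4.86). Cenpa was low in tumour replicate 1, at 14.5 CPM (others 21.7 to 22.8), and Mcm4 in tumour replicate 3, at 39.9 CPM (others 47.1 to 48.3). In P14 replicate 1 Mcm4 stood at 71.9 CPM (others 56.7 to 57.2). In normal adult replicate 4 Cdc6 stood at 1.43 CPM (others 2.92 to 3.17).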

How the results depend on the processing

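Counts of members called are given as mitotic and S-phase, at P14 against normal adult (10 and 12 as reported), tumour against normal adult (6 and 14) and tumour against P14 (1 and 3). With adjusted p under 0.01 they were 6 and 7, 1 and 5, and 0 and 1. With a replicate block by title number they were 5 and 5, 1 and 1, and, for S-phase in tumour against P14, 1. The numbers were not shown to pair the samples. With Xist-positive libraries alone they were 0 and 1, 0 and 7, and 0 and 1. With the epithelial sum as covariate they were 0 and 0 at P14, 8 for S-phase in tumour, and 0 and 1 in tumour against P14. With the leukocyte sum, 3 mitotic genes were called in tumour against P14. With the squamous sum, chosen after seeing the data, 7 S-phase genes were called at P14 and 0 of either class in both tumour comparisons. Without normal adult replicates 2 and 3, also chosen after seeing the data, 16 mitotic genes were called in each comparison with normal adult and 2 in tumour against P14. Without normal adult replicates 1 and 4, likewise chosen, the counts were 6 and 7 at P14, 1 and 2 in tumour, and 2 mitotic in tumour against P14. Voom called 16 mitotic genes at P14. In tumour against P14, voom, DESeq2, library totals alone and the fit of 8 libraries each called 2 mitotic genes, and the fit of 8 libraries called 2 in tumour against normal adult. Leaving out 1 library gave 7 to 14 and 9 to 15 at P14, 1 to 10 and 8 to 15 in tumour, and 0 to 2 and 1 to 4 in tumour against P14.

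The log2 ratio of S-phase to mitotic sums differed by -0.21 at P14 and -0.07 in tumour from normal adult. With the mean log2 value in place of the sum it was 0.023 and 0.138, so that the sign turned in both. Leaving out 1 library gave -0.37 to -0.05 at P14, -0.23 to 0.10 in tumour (0.02 without tumour replicate 4, 0.03 without normal adult replicate 1 and 0.10 without normal adult replicate 4) and 0.07 to 0.23 in tumour against P14. Plk1 at P14 was 0.20 with the epithelial sum as covariate (adjusted p = 0.927). Over 21 named values, 448 alternatives kept direction and side of the threshold, 76 lost the call and 1, that of Plk1, reversed. The causes of these changes were not tested. At P14 the epithelial covariate and Xist fits left few calls among all genes. The leukocyte covariate fit called 2029 genes higher and 2233 lower there, and the squamous covariate fit 1376 and 1763. Precision is limited by 4 libraries per group, a common biological coefficient of variation of 0.333 and the 15449444 counts of tumour replicate 4.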
